A study of Mus musculus with 45 samples.

Results

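The costimulatory receptors and ligands examined here were 10 genes, Icos, Icosl, Cd28, Cd80, Cd86, Cd40, Cd40lg, Tnfrsf4, Tnfrsf9 and Tnfsf8, chosen by symbol from the 55450 genes of the deposited table. Their RNA was followed across 8 groups of cells sorted from the popliteal draining lymph nodes of mice injected in the footpad with 50 µg OVA and 5 µg LPS in 20 µL of an IFA emulsion. S1PR4-/- mice carried the S1pr4 knockout of strain B6.129P2-S1pr4tm1Dgen/J in every cell, had been backcrossed to C57BL/6 for at least 10 generations, and were compared with WT littermates, males and females of 8 to 12 weeks. TFH cells (TCRβ+ CD4+ PD1+ CXCR5+) and non-TFH cells (TCRβ+ CD4+ PD1- CXCR5-) were taken on day 6, and GC B cells (B220+ GL7+ Fas+) and non-GC B cells (B220+ GL7- Fas-) on day 9. Each of the T cell and GC B cell groups held 6 samples, and non-GC B cells held 5 from WT and 4 from S1PR4-/- mice, 45 in all. None of the 10 genes was used in a sort gate. The study's methods give 6 mice of each genotype for the sorts, without saying whether that number holds for each day. The sources used here do not say which library holds which mouse, so p-values measure the spread between these samples. Because the samples are bulk RNA, fewer cells of a type and less RNA per cell cannot be told apart.

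Costimulatory molecules carry the signals that accompany antigen recognition when a T cell meets an antigen-presenting cell. CD28 on T cells binds CD80 and CD86, ICOS binds ICOS ligand (Icosl), and CD40 ligand (Cd40lg) on T cells engages CD40 on B cells and dendritic cells. OX40 (Tnfrsf4), 4-1BB (Tnfrsf9) and CD30 ligand (Tnfsf8) belong to the TNF receptor and ligand families. In germinal centers, ICOS and CD40 ligand are known as means by which TFH cells help B cells. The comparisons asked how these genes differ between germinal center and other cells, and whether they differ without S1PR4, a receptor for sphingosine 1-phosphate.

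The libraries held 26299429 to 45548215 expected counts. S1pr4 had 505 to 6305 counts in the WT samples and 0 to 40 in the S1PR4-/- samples, as labelled. The sorted populations carried their markers, with Bcl6 in WT samples between 99.5 and 141 CPM (counts scaled to library size by TMM) in TFH cells and between 29.7 and 40.9 CPM in non-TFH cells, and S1pr2 between 339.6 and 582 CPM in WT GC B cells against at most 7.12 CPM in WT non-GC B cells. Libraries also carried RNA of genes that mark other cell types, and its source was not tested. S1PR4-/- TFH replicate 6 held 342 CPM of Lyz2 and 59.1 CPM of Csf1r, both myeloid markers, where the other TFH samples reached 59.5 and 13.7 CPM.

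Promoter sequences are printed for some of the members that differed between cell states, and a link between sequence and level was not tested. RefSeq promoters (GRCm38.p6, the mm10 assembly), spanning 250 bases before to 50 bases after a start site, were at hand for 5 of the 10 genes, Tnfsf8, Tnfrsf9, Tnfrsf4, Icosl and Cd80. Not in that table were Icos, Cd28, Cd86, Cd40 and Cd40lg. The first 3 sequences printed here belong to the TNF family members on chromosome 4 that were higher in TFH than in non-TFH cells, and the last to the gene that fell most among B cell members in GC B cells. Each runs 5′ to 3′ on the strand of its gene (minus for Tnfsf8 and plus for the others), with motif matches in capitals.
Tnfsf8, chr4:63861235-63861534: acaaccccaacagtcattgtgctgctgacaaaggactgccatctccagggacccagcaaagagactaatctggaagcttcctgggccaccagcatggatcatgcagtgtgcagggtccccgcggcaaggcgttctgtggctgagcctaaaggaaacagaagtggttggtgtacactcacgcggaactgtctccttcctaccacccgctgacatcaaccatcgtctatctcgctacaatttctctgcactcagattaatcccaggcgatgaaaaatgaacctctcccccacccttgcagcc
Tnfrsf9, chr4:150927749-150928048: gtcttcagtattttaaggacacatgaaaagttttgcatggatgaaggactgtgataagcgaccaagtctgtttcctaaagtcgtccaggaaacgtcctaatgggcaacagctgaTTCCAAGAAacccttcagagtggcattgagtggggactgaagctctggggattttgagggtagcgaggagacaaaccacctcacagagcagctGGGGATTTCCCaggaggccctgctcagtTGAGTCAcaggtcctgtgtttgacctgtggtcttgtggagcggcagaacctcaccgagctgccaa
Tnfrsf4, chr4:156013445-156013744: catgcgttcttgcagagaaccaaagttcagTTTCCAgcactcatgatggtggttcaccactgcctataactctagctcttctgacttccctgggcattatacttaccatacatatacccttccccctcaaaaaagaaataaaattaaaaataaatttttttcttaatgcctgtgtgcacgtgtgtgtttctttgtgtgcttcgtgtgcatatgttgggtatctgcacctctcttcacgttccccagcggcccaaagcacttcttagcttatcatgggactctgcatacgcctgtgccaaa
Icosl, chr10:78069118-78069417: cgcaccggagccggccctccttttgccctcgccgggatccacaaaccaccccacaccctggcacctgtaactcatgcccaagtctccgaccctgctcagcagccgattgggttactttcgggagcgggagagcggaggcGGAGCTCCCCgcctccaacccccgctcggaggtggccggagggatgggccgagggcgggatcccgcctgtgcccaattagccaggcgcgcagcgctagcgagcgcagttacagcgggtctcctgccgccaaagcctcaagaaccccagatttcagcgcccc

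The 4 motifs were searched on both strands: AP-1 (TGANTCA), STAT (TTCNNNGAA), NFAT (TGGAAA) and a 10-base NF-kB motif. Among the 32851 promoters of the table, 7.81% held the AP-1, 8.30% the STAT, 21.4% the NFAT and 8.46% the NF-kB motif. The printed Tnfrsf9 promoter, the one with more matches of 2 listed for that gene, held an AP-1 match from base -15, a STAT match from base -136 and 2 overlapping NF-kB matches from bases -43 and -42, counted from the start site. The other Tnfrsf9 promoter held 1 NFAT match, from base -221, and none of the AP-1, STAT or NF-kB motifs. Tnfrsf4 held 1 NFAT match, from base -220, and Icosl 1 NF-kB match, from base -111, both on the minus strand. Cd80, whose window is not printed, held 1 AP-1 match, from base -42. The Tnfsf8 window held no match to any of them. A match is a description of the letters only.

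**Figure D1:**
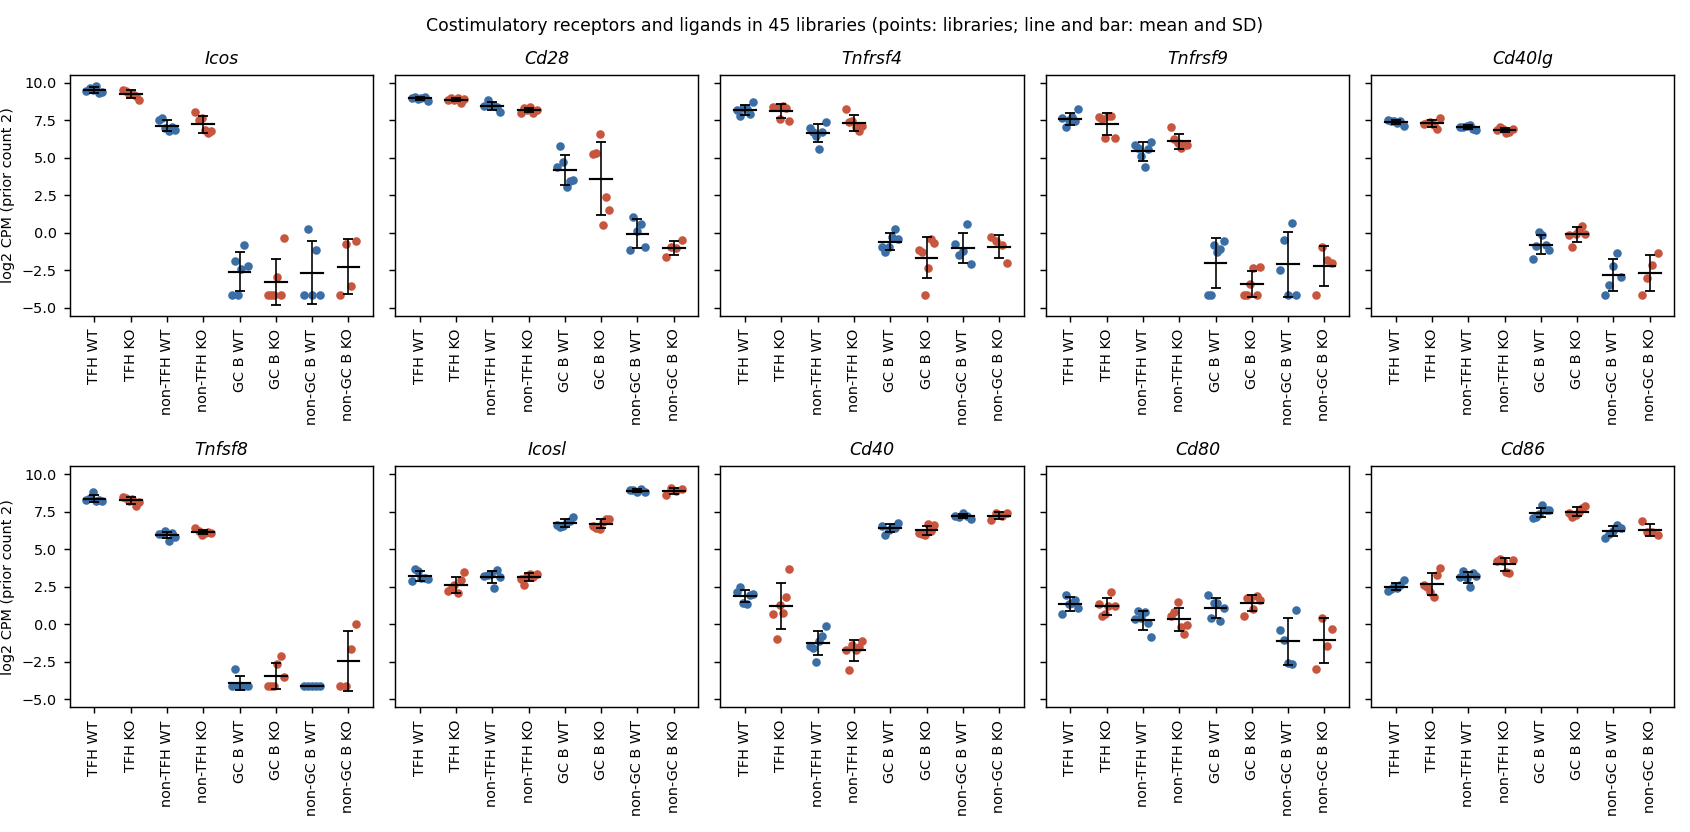
Levels of the 10 genes (log2 CPM with a prior count of 2) in each of 45 libraries, by population and genotype, with WT in blue and S1PR4-/- in red. Points are libraries, lines are means and bars are SDs. Icos, Cd28, Tnfrsf4, Tnfrsf9, Cd40lg and Tnfsf8 sit higher in CD4+ T cells and Icosl, Cd40 and Cd86 higher in B cells, while Cd80 is low throughout.

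Levels can be set beside each other between genes only per length, here as CPM per kb of exon, with lengths from GENCODE M21, whereas the study's methods name release M30. In WT TFH cells the highest were Tnfrsf4 at 221 ± 52.6 CPM per kb and Icos at 216 ± 27.8 CPM per kb (SD, n = 6). Cd40lg followed at 134 ± 14.2 CPM per kb, then Tnfsf8 at 87.5 ± 15.8, Cd28 at 81.6 ± 5.92 and Tnfrsf9 at 73.5 ± 21.2 CPM per kb. Among the members that B cells carry, Icosl led in WT non-GC B cells at 103 ± 6.41 CPM per kb (SD, n = 5), ahead of Cd40 at 43.2 ± 4.31 and Cd86 at 20.4 ± 4.64 CPM per kb. In WT GC B cells Cd86 led instead, at 48.4 ± 11.3 CPM per kb, with Cd40 at 25.1 ± 4.35 and Icosl at 23.3 ± 4.15 CPM per kb (SD, n = 6). Cd80 reached a mean of only 0.746 CPM per kb in its highest group, S1PR4-/- GC B cells.

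Ordered by mean CPM over the 8 groups, most members fell into few steps that samples did not cross. Icos and Tnfsf8 had 3 levels, TFH cells above non-TFH cells and these above B cells, with the genotypes overlapping at each level in T cells. Cd40lg, Tnfrsf4 and Tnfrsf9 had neighbouring T cell groups that overlapped, all above the B cell groups. Cd28 was higher in every T cell than in every B cell library, and higher in GC B than in non-GC B cells within each genotype, although S1PR4-/- GC B replicate 4 lay below WT non-GC B replicates 2 and 4. Icosl ran from non-GC B over GC B to T cells, and Cd40 did the same. Cd86 was highest in GC B cells, then in non-GC B cells, then in T cells. For Cd80 every neighbouring pair of groups overlapped.

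Icos, Tnfsf8, Tnfrsf9 and Tnfrsf4 were higher in TFH than in non-TFH cells in both genotypes, while Cd40lg was called in neither and Cd28 only in S1PR4-/- cells. In WT mice 6 of the 10 genes were higher in TFH cells (Cd40, Tnfsf8, Icos, Tnfrsf9, Tnfrsf4 and Cd80) and 1, Cd86, was lower, counting a gene at an FDR under 0.05 and over 1.5-fold. Of all genes tested, 22.8% were higher and 20.4% lower by the same rule. In S1PR4-/- mice 6 were also higher, with Cd28 in place of Cd80, and again Cd86 alone was lower, against 22.3% and 21.1% of all genes. The median log2 fold change of the 10 genes was 1.29 in WT and 0.798 in S1PR4-/- cells, and that of all genes 0.000254 and 0.00681.

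Icos, the inducible costimulator of the CD28 family (ENSMUSG00000026009.14, chr1:60977927-61000320 in mm10), ranged from 640.5 to 901 CPM (median 725) in WT TFH cells and from 109 to 198 CPM (median 129) in WT non-TFH cells. S1PR4-/- TFH cells ranged from 453 to 733 CPM (median 628) and S1PR4-/- non-TFH cells from 99.5 to 259.7 CPM (median 150.1). Every TFH library was above every non-TFH library of its genotype. The log2 fold change was 2.37 (SE 0.15, adjusted p = 5.12e-09, edgeR) in WT and 1.95 (SE 0.22, adjusted p = 2.22e-06, edgeR) in S1PR4-/- cells. Icos shares its locus with the unclassified gene Gm37039 on the same strand, so reads there could be assigned to either. Cd28, which carries the classic costimulatory signal of T cells (ENSMUSG00000026012.2, chr1:60716800-60773359), differed less. It ranged from 435 to 539 CPM (median 506) in WT TFH and from 259.9 to 459 CPM (median 348) in WT non-TFH cells, which overlapped. In S1PR4-/- cells the ranges were 411 to 506 CPM (median 475) and 254 to 327 CPM (median 295), with no overlap. Its log2 fold change was 0.50 (SE 0.11, adjusted p = 6.22e-04, edgeR) in WT, under 1.5-fold, and 0.71 (SE 0.07, adjusted p = 1.11e-06, edgeR) in S1PR4-/- cells. The WT value became a call without WT non-TFH replicate 2 (0.59) and with the B cell marker score as a covariate (0.61, adjusted p = 0.00638, edgeR). With all 8 groups in 1 fit the S1PR4-/- value was 0.70 and was not called (adjusted p = 0.214, edgeR).

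Tnfrsf4 encodes OX40, a receptor that sustains activated T cells (ENSMUSG00000029075.6, chr4:156013843-156016612). It ranged from 223 to 427 CPM (median 296) in WT TFH cells and from 48.5 to 167 CPM (median 105) in WT non-TFH cells, which did not overlap and gave on the log2 scale 1.499 (SE 0.23, adjusted p = 4.35e-05, edgeR). S1PR4-/- TFH cells ranged from 177 to 355 CPM (median 328) and S1PR4-/- non-TFH cells from 108 to 301 CPM (median 151). These overlapped, and the log2 fold change was 0.77 (SE 0.24, adjusted p = 0.00999, edgeR). Tnfrsf9, which encodes 4-1BB (ENSMUSG00000028965.13, chr4:150914562-150946102), followed the same order. WT TFH cells ranged from 131 to 305 CPM (median 192) and WT non-TFH cells from 20.4 to 65.5 CPM (median 48.9), again apart, with a log2 fold change of 2.12 (SE 0.25, adjusted p = 2.84e-06, edgeR). In S1PR4-/- mice TFH cells ranged from 78.7 to 218 CPM (median 199) and non-TFH cells from 50.9 to 129.7 CPM (median 60.2), which overlapped, with a log2 fold change of 1.21 (SE 0.30, adjusted p = 0.00217, edgeR). Camta1 overlaps Tnfrsf9 on the opposite strand, and the strand setting of the counting is not given in the sources used here.

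Tnfsf8, the CD30 ligand (ENSMUSG00000028362.2, chr4:63831308-63861347), separated TFH from non-TFH cells in every library. It ranged from 292 to 452 CPM (median 313) in WT TFH cells and from 47.5 to 72.2 CPM (median 63.6) in WT non-TFH cells, a log2 fold change of 2.44 (SE 0.12, adjusted p = 4.35e-10, edgeR). S1PR4-/- TFH cells ranged from 231 to 354 CPM (median 311) and non-TFH cells from 61.4 to 82.8 CPM (median 68.6), a log2 fold change of 2.13 (SE 0.10, adjusted p = 5.87e-10, edgeR). Cd40lg, the T cell ligand of CD40 (ENSMUSG00000031132.1, chrX:57212143-57224042), differed by less than 1.5-fold. WT TFH cells ranged from 136 to 186 CPM (median 174) and WT non-TFH cells from 115 to 146 CPM (median 133), S1PR4-/- TFH cells from 123 to 197 CPM (median 157) and S1PR4-/- non-TFH cells from 103 to 130.2 CPM (median 118). The states overlapped in both genotypes. The log2 difference passed the FDR but not the fold limit, at 0.36 (SE 0.08, adjusted p = 0.00121, edgeR) in WT and 0.46 (SE 0.10, adjusted p = 7.08e-04, edgeR) in S1PR4-/- cells.

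The members best known from B cells and other antigen-presenting cells were low in the T cell libraries. Cd40 (ENSMUSG00000017652.16, chr2:165055627-165072948) ranged from 2.53 to 5.38 CPM (median 3.88) in WT TFH cells and from 0.116 to 0.845 CPM (median 0.352) in WT non-TFH cells, and from 0.44 to 12.7 CPM (median 2.01) and from 0.0603 to 0.396 CPM (median 0.27) in the same S1PR4-/- populations. The log2 fold changes were 3.18 (SE 0.37, adjusted p = 2.43e-06, edgeR) in WT and 3.80 (SE 0.72, adjusted p = 2.79e-04, edgeR) in S1PR4-/- cells. The samples did not overlap in either genotype. S1PR4-/- TFH replicate 6, the library high in Lyz2 and Csf1r, held 12.7 CPM of Cd40 where the other 5 held 0.440 to 3.50 CPM, and without it the log2 fold change was 2.84 (SE 0.49, adjusted p = 1.92e-04, edgeR). The summed level of 12 B cell markers ran from 148 to 498 CPM in WT TFH, 14.7 to 58.3 in WT non-TFH, 152 to 303 in S1PR4-/- TFH and 11.4 to 23.0 CPM in S1PR4-/- non-TFH cells, and 12, 8, 10 and 3 of the 12 averaged over 1 CPM in these groups. A large part of the sum in TFH cells was Cd22, at 104.5 to 223 CPM in WT and 136 to 260 CPM in S1PR4-/- samples. In non-TFH cells Cd22 was at 4.34 to 10.6 and 2.54 to 13.3 CPM. With the score of the 12 B cell markers as a covariate Cd40 gave 2.60 in WT and 3.02 in S1PR4-/- cells. The 14 myeloid and dendritic cell markers also moved with the state. Their summed level was 28.8 to 86.7 CPM in WT TFH and 15.2 to 43.4 CPM in WT non-TFH cells, and 17.3 to 450.3 and 12.6 to 36.3 CPM in the same S1PR4-/- populations, with 7, 4, 9 and 4 of the 14 over 1 CPM on average. Their mean log2 CPM was -0.688 to 0.357 in WT TFH and -2.39 to -0.994 in WT non-TFH cells, without overlap. In S1PR4-/- cells it was -1.0 to 1.64 and -2.22 to -0.999. The 8 plasma cell markers were higher in TFH cells as well, at summed levels of 289.8 to 659.8 CPM in WT TFH and 119.9 to 167 CPM in WT non-TFH cells, and 247.5 to 297 and 138 to 224 CPM in the same S1PR4-/- populations, with 7, 6, 7 and 4 of the 8 over 1 CPM on average. Jchain, which joins secreted antibodies, ranged from 13.2 to 143 CPM in WT TFH and from 0.378 to 14.6 CPM in WT non-TFH cells. In S1PR4-/- samples it ranged from 0.0222 to 9.5 CPM in TFH and from 0.0 to 1.06 CPM in non-TFH cells. Mzb1 reached 5.53 and Sdc1 3.31 CPM at most in S1PR4-/- TFH cells. Most of the plasma cell sum in S1PR4-/- TFH cells thus came from the rest of the list. The part of the myeloid and plasma cell lists in the differences of members between these states was not tested.

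Cd86, a ligand of CD28 (ENSMUSG00000022901.13, chr16:36603869-36666081), went the other way. It ranged from 4.56 to 7.46 CPM (median 5.58) in WT TFH and from 5.45 to 11.4 CPM (median 9.02) in WT non-TFH cells, and from 3.47 to 13.3 CPM (median 5.78) and from 10.7 to 20.1 CPM (median 18.4) in the same S1PR4-/- populations. The log2 fold change was -0.65 (SE 0.17, adjusted p = 0.00394, edgeR) in WT and -1.20 (SE 0.30, adjusted p = 0.00252, edgeR) in S1PR4-/- cells, and samples overlapped in both. The WT call was lost without non-TFH replicate 2, at -0.57, which fell under 1.5-fold. It was also lost with the B cell marker score as a covariate, at -0.45 (adjusted p = 0.141, edgeR). The mean log2 CPM of 5 regulatory T cell markers was lower in TFH cells as well, with overlapping samples. It was 5.26 in WT TFH and 5.68 in WT non-TFH cells, and 5.26 and 6.03 in the same S1PR4-/- populations. Not every marker followed that mean. Il2ra ran from 56.9 to 139.5 CPM in WT TFH and 47.0 to 99.7 CPM in WT non-TFH cells. In S1PR4-/- cells it ran from 37.8 to 267 and 82.5 to 156 CPM. Foxp3 ran from 86.35 to 191 and 72.2 to 167 CPM in WT, and from 75.0 to 171 and 140.0 to 245 CPM in S1PR4-/- cells. The part of these markers in the Cd86 difference was not tested. Cd80, the other CD28 ligand (ENSMUSG00000075122.5, chr16:38455561-38496335), ranged from 1.51 to 3.85 CPM (median 2.54) in WT TFH and from 0.491 to 1.74 CPM (median 1.23) in WT non-TFH cells, which overlapped, with log2 fold changes of 1.07 (SE 0.30, adjusted p = 0.00561, edgeR) in WT and 0.82 (SE 0.38, adjusted p = 0.0632, edgeR) in S1PR4-/- cells. In WT the call was lost with all 8 groups in 1 fit (adjusted p = 0.0513, edgeR). The S1PR4-/- value became a call with DESeq2 and limma voom, and without TFH replicate 2 (0.94), TFH replicate 3 (0.92) or non-TFH replicate 3 (1.15). Icosl (ENSMUSG00000000732.9, chr10:78069302-78083913), the ICOS ligand, ranged from 7.37 to 12.8 CPM (median 8.24) in WT TFH and from 5.27 to 12.3 CPM (median 9.34) in WT non-TFH cells. Its log2 difference was 0.04 (SE 0.19, adjusted p = 0.864, edgeR) in WT and -0.43 (SE 0.23, adjusted p = 0.106, edgeR) in S1PR4-/- cells, with overlapping samples. Without S1PR4-/- TFH replicate 6 it was called, at -0.66 (adjusted p = 0.00571, edgeR).

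**Figure D2:**
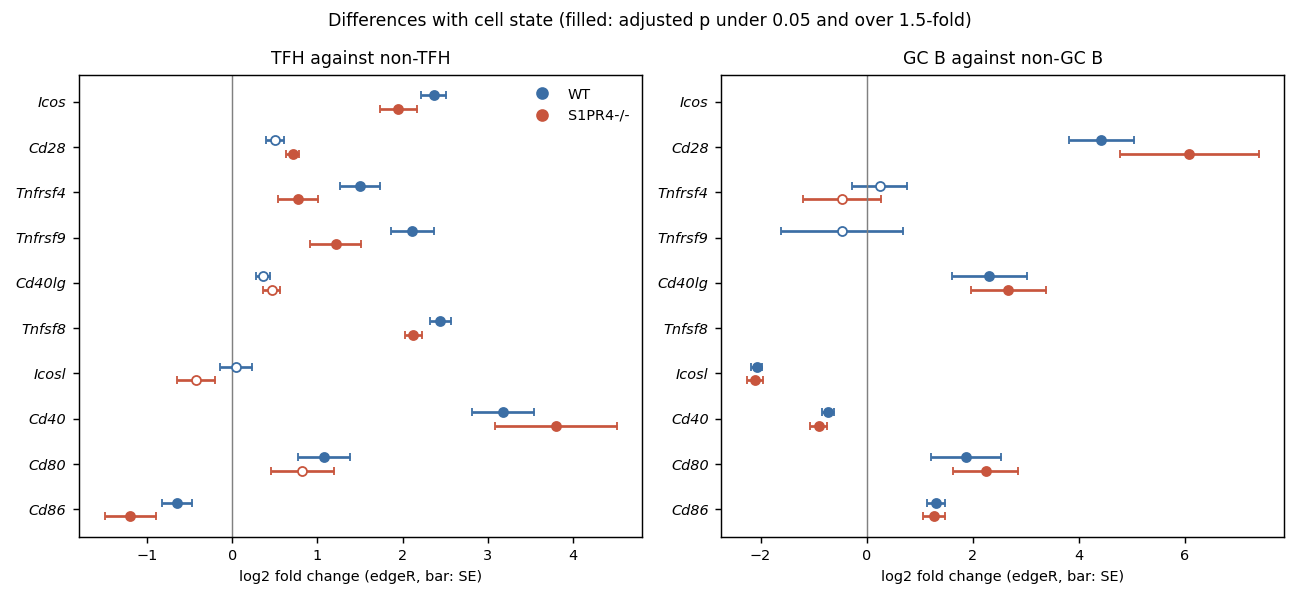
Log2 fold changes of the members in TFH over non-TFH cells (left) and in GC B over non-GC B cells (right), in WT (blue) and S1PR4-/- (red) samples. Bars are SEs, and filled points passed an FDR of 0.05 and 1.5-fold. Icosl and Cd40 lie below 0 in GC B cells of both genotypes and Icos and Tnfsf8 above 2 in TFH cells of WT mice. Genes removed by the low-count filter have no point.

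In B cells, Icosl and Cd40 were lower and Cd86, Cd28, Cd80 and Cd40lg higher in GC B than in non-GC B cells, in both genotypes. Of 8 members that passed the filter on low counts in WT samples, 4 were higher and 2 lower, where 24.8% and 23.1% of all genes were. Of 7 that passed in S1PR4-/- samples, 4 were higher and 2 lower, where 25.3% and 22.9% of all genes were. The summed level of 8 plasma cell markers was also higher in GC B cells, at 4188 to 9017 against 567 to 930 CPM in WT and 2229 to 17980 against 629 to 737 CPM in S1PR4-/- samples. With the score of these markers as a covariate, an alternative added after the data were seen, 2 members were called in WT (Icosl and Cd86) and 3 in S1PR4-/- samples (Icosl, Cd86 and Cd40lg), where 7.92% and 42.6% of all genes were. Icos and Tnfsf8 were left out by that filter in both genotypes, and Tnfrsf9 in S1PR4-/- samples. Icos had at most 35 counts and Tnfsf8 at most 30 in any B cell library. Tnfrsf4 was at 1.45 CPM at most in B cells, and its log2 difference was 0.24 (SE 0.53, adjusted p = 0.696, edgeR) in WT and -0.46 (SE 0.73, adjusted p = 0.601, edgeR) in S1PR4-/- cells. The WT value ran from 0.0206 without non-GC B replicate 5 to 0.94 without non-GC B replicate 4 and was not called in either fit. Tnfrsf9 gave -0.47 (SE 1.15, adjusted p = 0.731, edgeR) in WT cells. Its direction turned without non-GC B replicate 4 (0.79), and with limma voom (0.36), the T cell marker score (0.29) and the plasma cell marker score (3.26), none of them called.

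Icosl, through which B cells engage ICOS, was at 480.0, 489, 444, 515 and 448 CPM in the 5 WT non-GC B libraries and ranged from 88.9 to 139.9 CPM (median 105) in WT GC B cells. The S1PR4-/- non-GC B libraries held 395, 532, 464 and 503 CPM, and S1PR4-/- GC B cells ranged from 80.2 to 131 CPM (median 103). No GC B library reached the lowest non-GC B library. The log2 fold change was -2.08 (SE 0.11, adjusted p = 9.59e-09, edgeR) in WT and -2.11 (SE 0.15, adjusted p = 4.68e-07, edgeR) in S1PR4-/- cells. Cd40, the receptor for CD40 ligand, fell less. It was at 146, 144, 169.6, 147 and 129 CPM in WT non-GC B cells and ranged from 62.4 to 105 CPM (median 86.8) in WT GC B cells, a log2 difference of -0.72 (SE 0.11, adjusted p = 1.06e-04, edgeR). In S1PR4-/- samples it was at 121, 168, 150.3 and 166 CPM in non-GC B cells and ranged from 60.6 to 103 CPM (median 71) in GC B cells, which gave -0.90 (SE 0.16, adjusted p = 5.07e-04, edgeR) on the log2 scale. Samples of the 2 states did not overlap. The Cd40 calls were lost with the plasma cell marker score, at -0.62 and -0.35.

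Cd86 was higher in GC B cells. WT non-GC B libraries held 54.5, 62.9, 73.1, 96.4 and 86.3 CPM and WT GC B cells ranged from 137 to 245 CPM (median 175), a log2 fold change of 1.31 (SE 0.18, adjusted p = 2.88e-05, edgeR). S1PR4-/- non-GC B libraries held 116, 70.7, 69.1 and 60.2 CPM and S1PR4-/- GC B cells ranged from 142 to 235 CPM (median 175), a log2 fold change of 1.27 (SE 0.20, adjusted p = 2.06e-04, edgeR). The lowest GC B library was above the highest non-GC B library in each genotype. The summed level of 14 myeloid and dendritic cell markers was also higher in GC B cells, at 109 to 317 CPM in WT and 114 to 233 CPM in S1PR4-/- samples against 20.5 to 102 and 34.2 to 56.2 CPM in non-GC B cells. Over 1 CPM on average were 7 of the 14 in GC B cells of each genotype, and 9 in WT and 8 in S1PR4-/- non-GC B cells. The mean log2 CPM of the list overlapped between the states, at -0.306 to 0.896 in WT GC B and -1.11 to 1.21 in WT non-GC B cells. Its part in the Cd86 difference was not tested. Cd80 stayed at low counts. It was at 0.719, 0.426, 0.105, 0.0985 and 1.85 CPM in WT non-GC B cells and ranged from 1.12 to 3.7 CPM (median 2.32) in WT GC B cells, which overlapped, and differed on the log2 scale by 1.88 (SE 0.66, adjusted p = 0.0226, edgeR). S1PR4-/- non-GC B libraries held 0.0677, 1.29, 0.309 and 0.752 CPM and S1PR4-/- GC B cells ranged from 1.42 to 3.67 CPM (median 3.08), without overlap, and the log2 fold change was 2.24 (SE 0.61, adjusted p = 0.00713, edgeR). The WT call was lost without GC B replicate 1 (1.66, adjusted p = 0.0515, edgeR) or without non-GC B replicate 2 (1.76, adjusted p = 0.0501, edgeR), and the value was 2.78 without non-GC B replicate 5. In S1PR4-/- samples Cd80 gave 2.90 without non-GC B replicate 2. With the plasma cell marker score Cd80 lost its call in both genotypes, at 5.94 and 1.94. The defining T cell markers Cd3d, Cd3e, Cd3g, Trac and Trbc2 each averaged under 1 CPM in every B cell group. Of the whole list of 12 T cell markers, 5 averaged over 1 CPM in each B cell group. Their summed level ran from 109 to 169.5 CPM in GC B and from 70.8 to 133.6 CPM in non-GC B libraries, against 9174 to 12660 CPM in the T cell libraries. Most of it was Lck, a kinase of T cell receptor signalling, with group means of 94.6 to 124 CPM. Cd40lg was near 0 in B cells, at 9 to 47 counts in GC B and 0 to 11 in non-GC B libraries, and gave 2.31 (SE 0.70, adjusted p = 0.0106, edgeR) in WT and 2.67 (SE 0.70, adjusted p = 0.00575, edgeR) in S1PR4-/- cells. Without non-GC B replicate 4, the values were 3.09 in WT and 3.48 in S1PR4-/- cells. With the plasma cell marker score Cd40lg lost its call in WT, at 2.79 (SE 2.21, adjusted p = 0.466, edgeR), and kept it in S1PR4-/- cells, at 3.04.

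Cd28 was the member with the largest fold difference of GC B over non-GC B cells. It was at 0.39, 2.06, 1.05, 1.48 and 0.462 CPM in WT and 0.271, 0.463, 0.45 and 0.658 CPM in S1PR4-/- non-GC B cells. WT GC B cells ranged from 8.42 to 55.1 CPM (median 16.4), and the 6 S1PR4-/- GC B libraries held 37.7, 40.6, 95.4, 1.39, 5.06 and 2.85 CPM. Within a genotype the states did not overlap, with log2 fold changes of 4.42 (SE 0.61, adjusted p = 3.58e-05, edgeR) in WT and 6.08 (SE 1.31, adjusted p = 0.00173, edgeR) in S1PR4-/- cells. The S1PR4-/- value was 5.31 without GC B replicate 3, and 4.77 by limma voom, where it was not called (adjusted p = 0.173, limma). Among T cell markers Cd3e was at most 0.925 CPM and Trac at most 2.16 CPM in any GC B library, and the sum of all 12, most of it Lck, was 112 to 160.0 CPM in WT and 109 to 169.5 CPM in S1PR4-/- GC B cells. Markers of plasma cells moved with it. All 8 averaged over 1 CPM in GC B cells and 7 of the 8 in non-GC B cells of each genotype. Jchain was at 12010 CPM in S1PR4-/- GC B replicate 3, the library highest in Cd28, and at 1194 CPM in replicate 4, the lowest of that group in both genes.

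With the score of the 8 plasma cell markers as a covariate Cd28 was no longer called in either genotype. Its log2 fold change became -0.47 (SE 1.09, adjusted p = 0.825, edgeR) in WT and -0.26 (SE 0.54, adjusted p = 0.712, edgeR) in S1PR4-/- cells. The score itself did not overlap between the states, at 6.70 to 8.07 in WT GC B and 3.41 to 4.99 in WT non-GC B cells (mean log2 CPM), so state and score could be separated only through their spread within groups. In the same fits Icosl was still lower, at -1.67 in WT and -1.57 in S1PR4-/- cells, and Cd86 still higher, at 2.43 and 1.87.

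**Figure D3:**
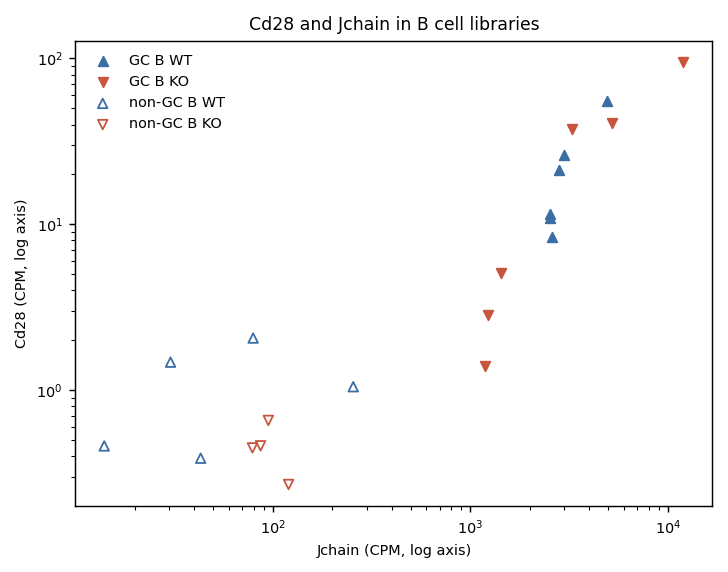
Cd28 against Jchain (both CPM, log axes) in the 21 B cell libraries. Filled triangles are GC B and open triangles non-GC B libraries, WT in blue and S1PR4-/- in red. Cd28 is highest, at 95.4 CPM, in the library with the most Jchain.

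Between the lineages, 9 of the 10 members differed in WT mice in the comparison of GC B with TFH cells, 3 higher in GC B cells and 6 lower, where 20.1% of all genes were higher and 24.2% lower. B and T cells were taken on different days, so day and lineage cannot be told apart here. Cd86, Cd40 and Icosl were higher in GC B cells, with log2 fold changes of 4.97 (SE 0.18), 4.51 (SE 0.20) and 3.53 (SE 0.16). Tnfsf8, Cd28, Cd40lg, Tnfrsf4, Tnfrsf9 and Icos were lower, and the last 5 of these ran from -4.49 (SE 0.42) for Cd28 to -12.22 (SE 0.38) for Icos, which moved to -12.86 without GC B replicate 5. Tnfsf8 had 2 counts in all over the 6 WT GC B libraries, both in replicate 2, and the ratio of TFH to GC B cells was 32400 (95% counting interval 8980 to 268000) with those counts pooled over the group. Cd80 did not pass the test, at -0.19 (SE 0.30, adjusted p = 0.583, edgeR). In non-GC B against non-TFH cells the same 9 passed, 3 higher and 6 lower, against 19.7% and 19.1% of all genes. Cd40 showed the largest excess in B cells, at 8.52 (SE 0.24), followed by Icosl at 5.76 (SE 0.17) and Cd86 at 3.12 (SE 0.19). Tnfsf8 had 0 counts in all 5 WT non-GC B libraries and was at least 3280-fold lower than in non-TFH cells, taking 3 counts over the group as the limit. Cd80 gave -0.88 (SE 0.65, adjusted p = 0.268, edgeR), and was called as lower in B cells without non-GC B replicate 5, at -1.80 (adjusted p = 0.0211, edgeR), and with limma voom, at -1.57 (adjusted p = 0.0476, limma).

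Between genotypes, edgeR fitted to the 2 groups compared called no member in any of the 4 populations. In TFH cells 0 of 10 members passed, where 0.496% of all genes did. An unadjusted p under 0.05 was reached by 2 members, beside 2586 of all 13495 genes tested. In non-TFH cells 0 of 10 passed, against 0.114% of all genes. An unadjusted p under 0.05 was reached there by 5 members, beside 1486 of all 13197 genes tested. In GC B cells it was 0 of 7 against 0.0612%, and in non-GC B cells 0 of 7 against 0.0537%, with 0 at an unadjusted p under 0.05 in both. Over all genes, 540 of 13070 were under it in GC B and 593 of 13038 in non-GC B cells. DESeq2, run without the filter on low counts, called 0, 1, 0 and 0 members in these populations, where 1.02%, 0.265%, 0.072% and 0.071% of all genes were called. A replicate block ties same-numbered samples, which between genotypes come from different mice. With it edgeR called 0, 1, 0 and 0, against 0.341%, 0.159%, 0.0459% and 0.0383% of all genes. With all 8 groups in 1 fit it called 0, 0, 0 and 1 (Tnfsf8 in non-GC B cells, at most 30 counts a library), against 0.944%, 0.111%, 0.0679% and 0.154%. Covariates moved the share of all genes called without a change in the number of members called. With position in the deposited table, only S1PR4-/- replicate 1 shared a position with the WT non-GC B libraries. The genotype difference of non-GC B cells then rested on that 1 library, so no share is given for it. In TFH cells the share of all genes called was 1.1% with Xist and 0.141% with the B cell marker score.

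Cd86 in non-TFH cells was the member nearest to a call. It ranged from 5.45 to 11.4 CPM (median 9.02) in WT and from 10.7 to 20.1 CPM (median 18.4) in S1PR4-/- non-TFH cells, with overlap, and its log2 fold change was 0.87 (SE 0.20, adjusted p = 0.0848, edgeR). DESeq2 called it (adjusted p = 0.00176), as did edgeR with a replicate block (0.86, SE 0.15, adjusted p = 0.0478). That block ties WT and S1PR4-/- samples by number alone, although they come from different mice. Only 2 of 6 samples here correlated best with their own number in the other genotype. With Xist as a covariate, to allow for the sex of the mice, the value was 0.649 and with the B cell marker score 0.697, neither called. Foxp3, which marks regulatory T cells, ran from 72.2 to 167 CPM in WT and from 140.0 to 245 CPM in S1PR4-/- non-TFH cells, and the summed level of 5 regulatory T cell markers from 174 to 392 and from 331 to 561 CPM, all 5 averaging over 1 CPM in both groups. Their part in the difference was not tested. The summed level of the 12 B cell markers was not higher beside it, at 11.4 to 23.0 CPM in S1PR4-/- against 14.7 to 58.3 CPM in WT non-TFH cells. Tnfrsf4 and Tnfrsf9 gave 0.66 (SE 0.26, adjusted p = 0.346, edgeR) and 0.64 (SE 0.26, adjusted p = 0.354, edgeR) in the same comparison, Cd28 -0.28 (SE 0.11, adjusted p = 0.342, edgeR) and Cd40lg -0.18 (SE 0.07, adjusted p = 0.372, edgeR).

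In TFH cells, Icos ranged from 640.5 to 901 CPM (median 725) in WT and from 453 to 733 CPM (median 628) in S1PR4-/- samples, a log2 difference of -0.27 (SE 0.11, adjusted p = 0.188, edgeR). Icosl, which lies 3.41 Mb from S1pr4 on chromosome 10, gave -0.56 (SE 0.23, adjusted p = 0.214, edgeR) in TFH cells. Markers of B cells and plasma cells were also lower on average in S1PR4-/- TFH cells, with a mean log2 CPM of the B cell list of -0.947 to 3.74 against 1.04 to 4.69 in WT and of the plasma cell list of 1.36 to 3.20 against 3.13 to 4.93. With the B cell marker score as a covariate Icosl gave -0.23 (SE 0.29, adjusted p = 0.838, edgeR). In B cells, where Icosl is abundant, it gave -0.04 (SE 0.14, adjusted p = 0.997, edgeR) in GC B and -0.00133 (SE 0.09, adjusted p = 0.999, edgeR) in non-GC B cells. The 95% interval of that difference was -0.305 to 0.23 in GC B and -0.173 to 0.17 in non-GC B cells. Cd40 gave -0.14 (SE 0.14, adjusted p = 0.985, edgeR) and Cd86 0.04 (SE 0.15, adjusted p = 0.997, edgeR) in GC B cells. Cd28 in GC B cells gave 0.47 (SE 0.86, adjusted p = 0.995, edgeR), with the largest SE of the members tested between genotypes in GC B cells. Its direction turned without S1PR4-/- replicate 3 (-0.35), and with limma voom (-0.58), the replicate block (-0.54), position in the table (-0.43), the T cell marker score (-0.16) and the plasma cell marker score (-0.10), none of them called.

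**Figure D4:**
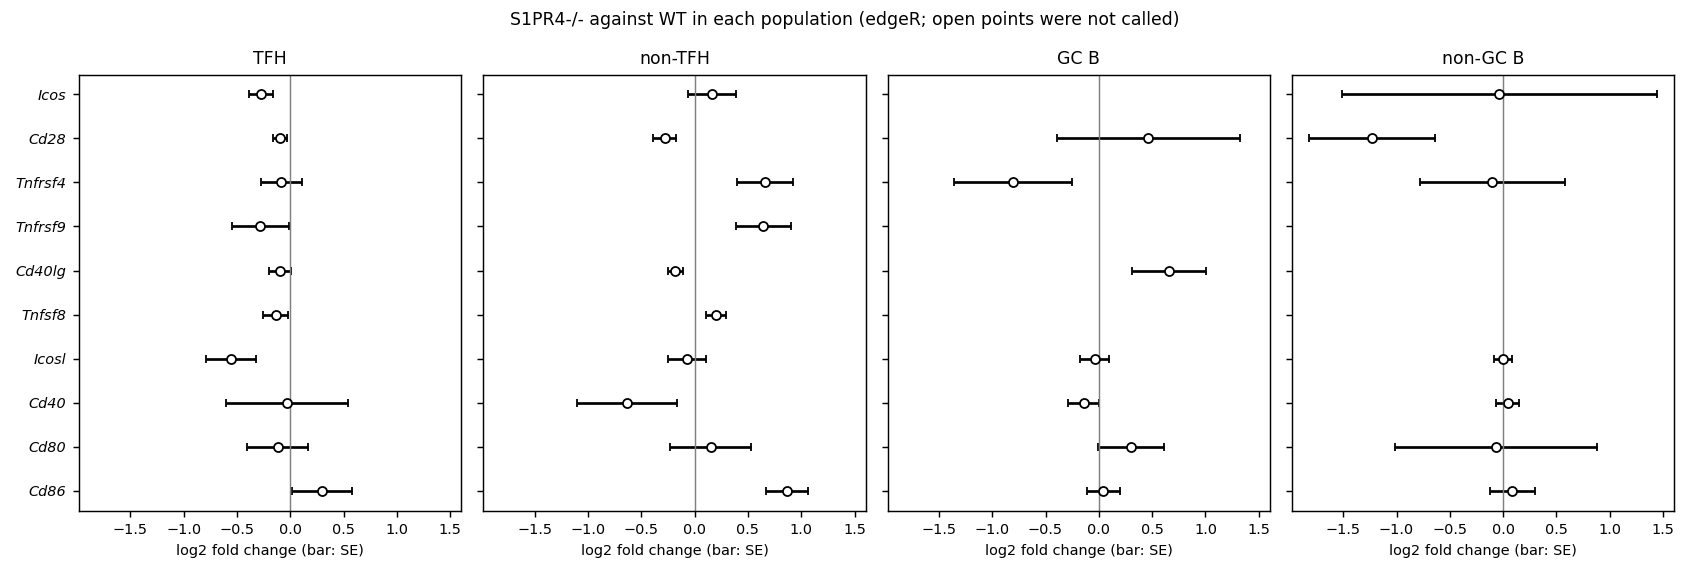
Log2 fold changes of the members in S1PR4-/- against WT samples of each population (edgeR, bars are SEs). Open points did not pass the test, which holds for every point shown. The values lie between -1.23 (Cd28 in non-GC B cells) and 0.87 (Cd86 in non-TFH cells).

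The difference between genotypes was also compared between states. In CD4+ T cells 0 of 10 members passed by FDR, where 0.0139% of all genes did. An unadjusted p under 0.05 was reached by 1325 of all 14401 genes tested and by 3 members. These were Tnfrsf9 at -0.93 (SE 0.41, adjusted p = 0.502, edgeR), Tnfrsf4 at -0.75 (SE 0.36, adjusted p = 0.537, edgeR) and Tnfsf8 at -0.34 (SE 0.16, adjusted p = 0.534, edgeR), all with a smaller excess of TFH over non-TFH cells in S1PR4-/- samples. In B cells 0 of 9 passed, against 0.0% of all genes, with 0 at an unadjusted p under 0.05 beside 664 of all 14490 genes. DESeq2 also called no member in either test, where it called 0.303% of all genes in T cells and 0.0164% in B cells.

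Tnfrsf4 and Tnfrsf9 varied together between T cell libraries, and with Foxp3. S1PR4-/- TFH replicates 3 and 6, lowest in Foxp3 at 78 and 75 CPM, were also lowest in Tnfrsf4, at 189 and 177 CPM, and in Tnfrsf9, at 78.7 and 80.8 CPM. The other 4 libraries of that group held 322 to 355 CPM of Tnfrsf4. WT TFH replicate 6 was highest in all 3 genes of its group, at 191 CPM of Foxp3, 427 of Tnfrsf4 and 305 CPM of Tnfrsf9. S1PR4-/- non-TFH replicate 1 was highest in its group, at 245, 301 and 129.7 CPM. WT non-TFH cells differed, since replicate 6 was highest in Tnfrsf4 (167 CPM) and Tnfrsf9 (65.5 CPM) but not in Foxp3. It held 135 CPM of Foxp3, where replicate 5 held 167 CPM. Position in the deposited table moved with these 3 genes in 1 of the 4 T cell groups. In S1PR4-/- non-TFH cells, replicates 1 to 3, which precede replicates 4 to 6 in the table, held 187 to 260 CPM of Icos against 99.5 to 113, 166 to 301 of Tnfrsf4 against 108 to 137, 62.7 to 130 CPM of Tnfrsf9 against 50.9 to 57.7, and 209 to 245 CPM of Foxp3 against 140.0 to 187. Cd80 separated there as well, at 1.39 to 2.74 against 0.575 to 0.897 CPM. In the other 3 T cell groups the same parts of the table overlapped in Tnfrsf4, Tnfrsf9 and Foxp3, with Tnfrsf4 means of 277 against 326 CPM in WT TFH, 287 against 285 CPM in S1PR4-/- TFH and 106.6 against 106.9 CPM in WT non-TFH cells. Other members did not overlap there in places, with Tnfsf8 at 314 to 452 against 292 to 312 CPM and Cd40lg at 176.5 to 186 against 136 to 172 CPM in WT TFH cells, and Cd40 at 0.116 to 0.306 against 0.397 to 0.845 CPM in WT non-TFH cells. With that position as a covariate the genotype log2 differences in non-TFH cells were 0.62 for Tnfrsf4 and 0.61 for Tnfrsf9. In GC B cells, replicates 1 to 3 of each genotype stood before replicates 4 to 6 and did not overlap with them in Cd28, with means of 34.1 against 10.3 CPM in WT and 57.9 against 3.10 CPM in S1PR4-/- cells. Icosl was lower in the earlier libraries, at 92.7 against 123 CPM in WT and 86.8 against 124 CPM in S1PR4-/- cells, and so was Cd86, at 145 against 209 and 156 against 209.7 CPM, again without overlap. Jchain was higher in them, at 3580.0 against 2558 CPM and 6829 against 1287 CPM. With position among the B cell libraries as a covariate, a fit chosen after seeing the data, the same members were called in GC B over non-GC B cells. All WT non-GC B libraries were coded with the earlier part. The WT fit therefore compares GC B replicates 1 to 3 with them and cannot separate state from position. In S1PR4-/- samples only non-GC B replicate 1 was coded with the earlier part. Cd28 then gave 5.05 in WT and 3.87 in S1PR4-/- cells, Icosl -2.28 and -2.01, and Cd86 1.03 and 1.27.

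**Figure D5:**
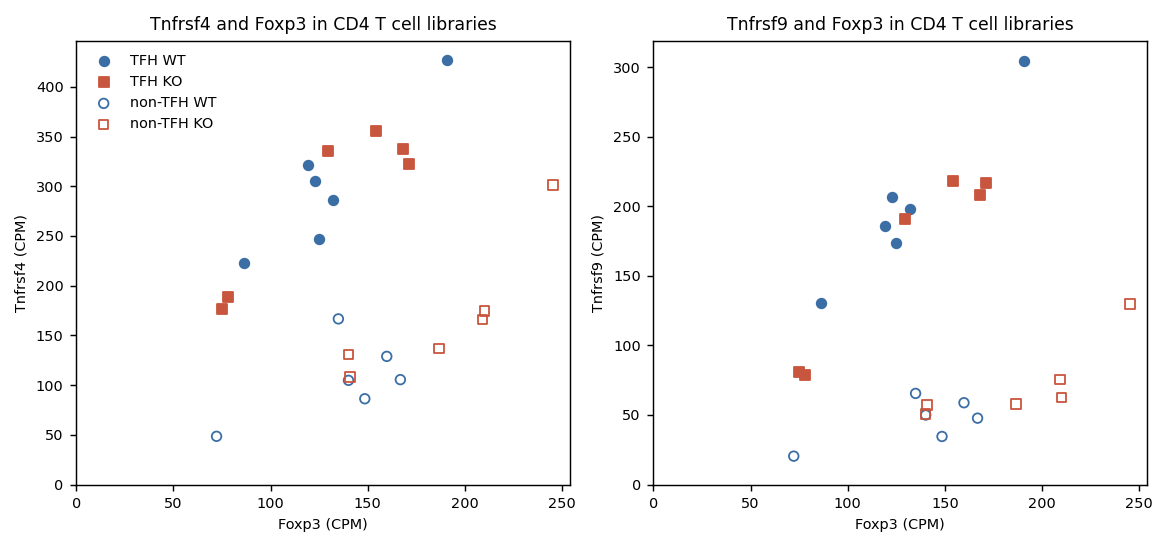
Tnfrsf4 (left) and Tnfrsf9 (right) against Foxp3, in CPM, in the 24 CD4+ T cell libraries. Filled symbols are TFH and open symbols non-TFH libraries, WT in blue and S1PR4-/- in red. The S1PR4-/- TFH libraries with the least Foxp3 (75.0 and 78.0 CPM) hold the least of both receptors in their group.

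The genes with the pattern most like each member were found by Pearson's r of log2 CPM over the 45 samples, a measure that mostly follows lineage. The closest were Ikzf2 for Icos (r = 0.990), Hvcn1 for Icosl (0.990), Hnrnpll for Cd28 (0.984), Ly86 for Cd40 (0.992), Apobec1 for Cd86 (0.974) and Cd5 for Cd40lg (0.986). For Tnfsf8 it was Ppic (0.989), for Tnfrsf4 and Tnfrsf9 Sh2d1a (0.986 and 0.976), and for Cd80 Anln (0.845). After group means were subtracted, over the 24 T cell samples, Tnfrsf4 was closest to Ccr8 (0.910), Gjb2 (0.897) and Capg (0.890), and Tnfrsf9 to Gzmb (0.922), Foxp3 (0.895) and Hopx (0.891). Icos was closest to Il1r2 (0.907), Tigit (0.887) and Rora (0.881). Tnfsf8 (Adgra3, 0.800), Cd40lg (Tmie, 0.810), Cd28 (Rbm12b1, 0.855) and Cd80 (Gm16712, 0.695) had weaker partners. Over the 21 B cell samples, Icosl was closest to Fermt3 (0.916), Cd40 to Slc25a11 (0.878), with the MHC class II gene H2-Aa at 0.857, and Cd86 to Cyth1 (0.876). These samples share libraries and depth, and the values are descriptions.

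Other costimulatory genes and signal carriers were taken from 2 lists of 20 and 24 genes. Of 16 other costimulatory genes tested in T cells, 5 were higher and 3 lower in TFH than in non-TFH cells in each genotype, where 22.8% and 20.4% of all genes were in WT and 22.3% and 21.1% in S1PR4-/- cells. Tnfsf14, the ligand LIGHT, was higher by 4.31 and 3.51 on the log2 scale in WT and S1PR4-/- cells, and Tnfrsf8, the CD30 that Tnfsf8 binds, by 3.88 and 3.15, or 3.76 without S1PR4-/- non-TFH replicate 1. Tnfsf9, the ligand of 4-1BB, gave 2.104 in WT cells, and Crtam -2.32 and -2.17. Tnfrsf25 gave -1.87 in S1PR4-/- cells. Of 24 signal carriers, 3 were higher and 5 lower in WT TFH cells, and 3 and 6 in S1PR4-/- TFH cells, beside the same shares. Map3k14, the kinase NIK of the noncanonical NF-kB pathway, gave -1.38 and -1.73, Pik3r1 -1.15 and -1.25, and Birc2 -0.91 and -0.88. Traf6 gave -1.01 in WT, and Birc3 -0.96 in S1PR4-/- cells. The median log2 fold change of the costimulatory list was 0.232 in WT and 0.206 in S1PR4-/- cells, and of the signal carriers 0.0201 and -0.0643.

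In GC B against non-GC B cells, 5 of 14 other costimulatory genes tested were higher and 3 lower in WT, and 5 and 4 in S1PR4-/- samples, where 24.8% and 23.1% of all genes were higher and lower in WT and 25.3% and 22.9% in S1PR4-/- samples. Havcr1, which encodes TIM-1, gave 5.01 and 4.99, Tnfrsf8 3.02 and 3.88, and Cd27 -1.85 and -2.59 on the log2 scale. Tnfsf14 had 110 counts over the WT GC B libraries and 1 over the WT non-GC B libraries, and gave 3.19 in S1PR4-/- samples. That value was 2.75 without non-GC B replicate 3 (adjusted p = 0.0501, edgeR), where the call was lost, and 7.73 without non-GC B replicate 2. Of 23 signal carriers, 2 were higher and 9 lower in each genotype, beside the same shares. Akt1 gave 1.52 and 1.74, Birc3 -1.25 and -1.23, and in WT Map3k14 -1.21 and Malt1 -1.20. Traf1 gave 1.26 and Prkcq -2.08 in S1PR4-/- samples, where the Prkcq call was lost without non-GC B replicate 2 (-1.83) or 4 (-1.89). Tnfrsf8 gave 3.64 without WT non-GC B replicate 2 and 5.71 without S1PR4-/- non-GC B replicate 4. The median log2 fold change was 0.351 and 0.705 for the costimulatory genes and -0.399 and -0.412 for the signal carriers.

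Between genotypes, 1 gene of these lists was called, in TFH cells, where 16 and 24 of their genes were tested and 0.496% of all genes were called. Tnfrsf25, the receptor DR3, ranged from 37.7 to 70.1 CPM in WT and from 19.2 to 38.5 CPM in S1PR4-/- TFH cells, a log2 fold change of -0.99 (SE 0.19, adjusted p = 0.0278, edgeR). The call was lost in 6 of the 12 fits that left out a library, without WT replicate 2, 3 or 5 or S1PR4-/- replicate 1, 5 or 6, where the values ran from -1.04 to -0.91 on the log2 scale, and with the B cell marker score as a covariate (-1.21, adjusted p = 0.0818, edgeR). In non-TFH cells it was at 102 CPM in both genotypes. In the test between states, where 0.0139% of all genes were called, Relb, a subunit of NF-kB, was at -0.62 (SE 0.10, adjusted p = 0.0175, edgeR) and was called. The call was lost with all 8 groups in 1 fit (-0.61, adjusted p = 0.111, edgeR). Relb was at 94.7 ± 9.34 CPM in WT and 83.0 ± 5.19 CPM in S1PR4-/- TFH cells (SD, n = 6), and at 68.5 ± 6.33 and 91.5 ± 6.399 CPM in non-TFH cells.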

How the data were processed

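RNA was sequenced from 45 sorted lymph node cell samples after polyA selection on oligo-dT beads, with libraries from a stranded total RNA kit. Per the submitters' processing notes, the authors used Cutadapt 2.10, STAR 2.5.3, Picard and RSEM 1.3.0 with mm10, and deposited 1 table of expected counts per gene, of which 8.83% were not whole. The counting's strand setting is not given in the sources used here. Expected counts were rounded and, for each comparison, filtered with filterByExpr, scaled by TMM and fitted with edgeR 4.0.16 (quasi-likelihood test, R 4.3.3) over all genes of the groups compared, with Benjamini-Hochberg adjustment. A gene was called at an FDR under 0.05 and over 1.5-fold (interactions by FDR only). CPM were computed with TMM factors over all samples. The procedure was tested on simulated data, and no result of that test is used here. DESeq2 1.42.0, limma 3.58.1, other scalings, filters, covariates, a replicate block and leaving out each library were tried as alternatives. The interval and floor of the Tnfsf8 ratios cover counting error only. The SE given for an edgeR fit is the absolute log2 fold change divided by the square root of the test's F statistic. The 95% intervals of the Icosl differences are 1.96 SE to each side, from the spread between samples. That multiplier is a normal quantile, which makes the intervals narrow for groups this small. Members and gene lists were chosen with earlier results of these data known. All members were named throughout. Of the lists, genes called between genotypes were named, and up to 4 called genes a list with the largest change between states. For each member, the 3 genes with the highest correlation were found over all 45 samples and within its lineage, and the closest are given. Coordinates and exon lengths come from GENCODE M21, whose 55450 genes match the table in number, although the study's methods name release M30. Some marker results, and an alternative for TFH cells that rests on them and was chosen after seeing the data, are not reported here. In TFH against non-TFH cells that alternative removed the call of Cd86 in WT and added one of Cd80 in S1PR4-/- samples, as other settings given beside them did, and it changed signs only of differences that were not called.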

Additional observations from a re-analysis of the deposited data

Results flagged for a closer look

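A test for a library far from the rest of its group (Dixon's test) was made for 79 member and group combinations, of which chance alone would mark about 5%, and 4 were marked. Icos was at 0.741 CPM (25 counts) in S1PR4-/- GC B replicate 6 where the other 5 libraries held 0 to 0.0697 CPM. Cd40 was at 0.0603 CPM (2 counts) in S1PR4-/- non-TFH replicate 2 where the others held 0.251 to 0.396 CPM. Tnfsf8 was at 452 CPM in WT TFH replicate 3, above the 292 to 335 CPM of the others. Tnfsf8 was also at 0.0699 CPM in WT GC B replicate 2, from 2 counts, where the others held 0. Among the genes of the signal carrier list, Relb differed between states in its genotype difference, with an interaction of -0.62 on the log2 scale in CD4+ T cells, lower in S1PR4-/- than in WT TFH cells and higher in S1PR4-/- than in WT non-TFH cells. With all 8 groups in 1 fit the Relb value was -0.61 (adjusted p = 0.111, edgeR).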

How the results depend on the processing

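Over the results and alternatives reported here, 2475 values were compared with the reported ones, of which 2358 kept direction and side of the threshold and 79 changed sign. The number of members called was within 1.5 times its reported value except in these cases. It was 1 in place of 0 for genotype in non-TFH cells with DESeq2 (0.265% of all genes, against 0.114% reported) and with the replicate block (0.159%; Cd86, 0.86, adjusted p = 0.0478, edgeR), and 1 for genotype in non-GC B cells with all 8 groups in 1 fit (Tnfsf8; 0.154% against 0.0537%). With the plasma cell score it was 2 in WT and 3 in S1PR4-/- GC B against non-GC B cells (7.92% and 42.6% of all genes). In the T cell interaction DESeq2 called 79 of 26096 genes and the replicate block 41 of 14401, in place of 2, and no member. Same-numbered samples did not deviate together by over 0.1 in every pair of any comparison (2 of 6 pairs in WT and 3 of 6 in S1PR4-/- TFH against non-TFH cells), although 4 of 6 and 6 of 6 samples there, and 4 of 5 in WT GC B against non-GC B cells, correlated best with their own number. The replicate block changed no other count of called members, and of the named list genes it removed the call of Prkcq in S1PR4-/- GC B against non-GC B cells (-1.71, adjusted p = 0.196, edgeR), as did limma voom (-1.81) and the T cell marker score (-1.38).

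Signs changed as follows, in log2 units and always for differences below the threshold unless named above. With the plasma cell score, GC B against non-GC B cells gave -0.47 (WT) and -0.26 (S1PR4-/-) for Cd28, 3.26 for Tnfrsf9 in WT and 1.22 for Tnfrsf4 in S1PR4-/- cells, and genotype in GC B cells -0.10 for Cd28 and -0.00136 for Cd86. With the score of the other lineage's markers, WT TFH against non-TFH cells gave -0.22 for Icosl, WT GC B against non-GC B cells 0.29 for Tnfrsf9, genotype in TFH cells 0.41 for Cd40 and 0.0451 for Cd40lg, genotype in non-TFH cells -0.42 for Icos, 0.0164 for Icosl, -0.61 for Cd80 and 0.41 for Cd40, and genotype in GC B cells 0.0120 for Icosl and -0.16 for Cd28. With Xist as a covariate, genotype gave 0.0827 for Cd80 in TFH cells, -0.12 for Icos and -0.33 for Cd80 in non-TFH cells, and 1.80 for Icos, 0.20 for Cd80 and 0.0300 for Tnfrsf4 in non-GC B cells. With limma voom, Tnfrsf9 gave 0.36 in WT GC B against non-GC B cells, Cd28 -0.58 for genotype in GC B cells, Icos 0.90, Cd80 0.17 and Tnfrsf4 0.0782 for genotype in non-GC B cells, and Cd40 -0.24 in the interaction in T cells. With the replicate block, genotype gave -0.54 for Cd28 in GC B cells and 0.12 for Icos, 0.96 for Cd80 and -0.00787 for Cd40 in non-GC B cells. With position in the table as a covariate, genotype gave -0.43 for Cd28 in GC B cells and -0.28 for Cd40 and 0.46 for Tnfrsf4 in non-GC B cells, and WT GC B against non-GC B cells gave -0.35 for Tnfrsf4. The 2 values for non-GC B cells rest on S1PR4-/- replicate 1 alone against WT. The WT state value rests on the earlier GC B libraries, since all WT non-GC B libraries were coded with them. The cause of the sign changes was not tested.

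When 1 library was left out, the number of members called stayed at 7 in WT and at 7 to 8 in S1PR4-/- TFH against non-TFH cells, at 5 to 6 in WT and 6 in S1PR4-/- GC B against non-GC B cells, and at 0 in the 4 comparisons of genotypes. Icosl ran from -0.0764 to 0.14 in WT TFH against non-TFH cells and Tnfrsf9 from -0.80 to 0.79 in WT GC B against non-GC B cells. Between genotypes in TFH cells Cd80 ran from -0.38 to 0.0344, Cd40 from -0.99 to 0.20 and Tnfrsf4 from -0.16 to 0.0380. In non-TFH cells Icos ran from -0.0205 to 0.27, Icosl from -0.19 to 0.0277 and Cd80 from -0.18 to 0.30. In GC B cells Icosl ran from -0.11 to 0.0511, Cd28 from -0.35 to 0.99 and Cd86 from -0.0395 to 0.15. In non-GC B cells Icos ran from -0.71 to 0.37, Icosl from -0.0621 to 0.0765, Cd80 from -0.75 to 0.84, Cd86 from -0.16 to 0.19, Cd40 from -0.00894 to 0.14 and Tnfrsf4 from -0.35 to 0.59. The alternatives for plasma cell markers and position in the table were chosen after seeing the data.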
